A study of Mus musculus with 12 samples.

Results

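The fraction by genotype interaction compares the cardiomyocyte and non-cardiomyocyte fractions of injured neonatal mouse hearts. It asks, gene by gene, whether floxing Wls changed expression by a different amount in each. For each gene it is the log2 difference of Wls fl/fl minus control in the non-cardiomyocyte fraction (NonCM) minus the same difference in the cardiomyocyte fraction (CM). A positive interaction therefore means that the genotype difference was more positive in NonCM than in CM, whatever the sign of either. All 12 of 12 libraries entered, 3 in each of 4 groups, and 11331 of 46956 gene symbols were tested, namely those with a mean of 2 or more CPM (reads scaled to a common library total) in each fraction. Genes confined to 1 fraction are therefore not among those tested.

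Control hearts were labelled MCM/+ and the others MCM/+ Wls fl/fl, on a background labelled BL6/C57. Each genotype was sampled as a CM fraction and as a NonCM fraction, which the labels call interstitial cells. Every animal, controls included, was labelled as carrying the MCM allele. Each received 3 tamoxifen doses over postnatal days 1 to 3 and had a myocardial infarction at day 2, with hearts taken 2 weeks after surgery. The labels nevertheless call the cells adult. There was no group with floxed Wls and no MCM, and no uninjured group. MCM commonly stands for MerCreMer, in which Cre is fused to estrogen receptor domains that hold it inactive until tamoxifen binds, while the sources used here give no promoter for it. Both fractions came from each mouse and each condition had 3 hearts, per the series description, but the labels do not say which libraries share a heart.

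Wls (Wntless) is the membrane protein that carries lipid-modified Wnt ligands from the Golgi to the cell surface, and a cell without it cannot release Wnts while it can still receive them. In the heart, cardiomyocytes contract and burn fatty acids in densely packed mitochondria, whereas fibroblasts make and remodel the collagen-rich matrix between them. The title of the series is about noncanonical Wnt signals that pass from cardiomyocytes to fibroblasts. Wnt release itself was not measured here, and the interaction compares what each fraction expressed.

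Library depth ran from 1160146 recovered reads in NonCM control replicate 1, where 1 read is worth 0.862 CPM, to 10281214. The p-values cover spread between libraries only. Replicate 3 of every group was close to a mix of the profiles of the other two, with a mean squared residual of 1.0041 to 1.0365 times counting variance, against 1.9755 to 2.8683 for replicate 1 set against replicate 2. Fitted in the same way as a mix of the other two, replicates 1 and 2 gave 1.1382 to 1.9755. Results are therefore given also for the 8 libraries that leave out replicate 3 of each group. Cardiomyocyte RNA was present in both fractions, where the 28 mature markers of these cells took 12.5 ± 0.118% of reads in CM control and 8.53 ± 0.407% in NonCM control libraries (SD, n = 3). Fewer cells of a type and less RNA per cell cannot be told apart in such bulk samples.

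The floxed gene itself had the strongest positive interaction among the called genes. Wls (chromosome 3, 159839672 to 159938664, build mm10) stood at 38.4, 31.5 and 33.1 CPM in CM control replicates 1 to 3 and at 14.3, 9.01 and 14.8 in CM Wls fl/fl replicates. In NonCM it stood at 66.4, 54.7 and 60.7 in control replicates, against 54.5, 49.9 and 49.1 with Wls floxed. The genotypes were well apart in CM, whereas in NonCM the lowest control and the highest Wls fl/fl library all but touched. The fitted difference was −1.39 in CM (SE 0.14, limma adjusted p = 1.04e-04) and −0.24 in NonCM (SE 0.14, limma adjusted p = 0.366), on the log2(CPM + 1) scale used throughout. The interaction was 1.15 (95% interval 0.73 to 1.58, limma adjusted p = 0.0219). With 8 libraries it was 1.33 with a limma adjusted p of 0.747, so that the call was lost while the size was not.

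Esr1, which encodes estrogen receptor alpha, was the single gene called with a negative interaction on CPM in the fit of 4 group means. Its CPM was 2.26, 5.22 and 3.07 in CM control, 264, 204 and 252 in CM from Wls fl/fl hearts, 13.8, 4.91 and 5.51 in NonCM control and 122, 102 and 111 in NonCM from Wls fl/fl hearts. Every Wls fl/fl library was far above every control library, and the gap was wider in CM. The differences were 5.78 in CM and 3.76 in NonCM (limma adjusted p = 5.08e-09 and 1.62e-06), giving an interaction of −2.02 (SE 0.38, limma adjusted p = 0.0302; −2.10 with adjusted p = 0.747 in 8 libraries). MerCreMer contains estrogen receptor sequence, and both genotypes are labelled as carrying it, yet Esr1 was low in all 6 control libraries. Reads of the transgene and of the endogenous gene (chromosome 10, 4611593 to 5005614, mm10) cannot be told apart in these files.

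**Figure D1:**
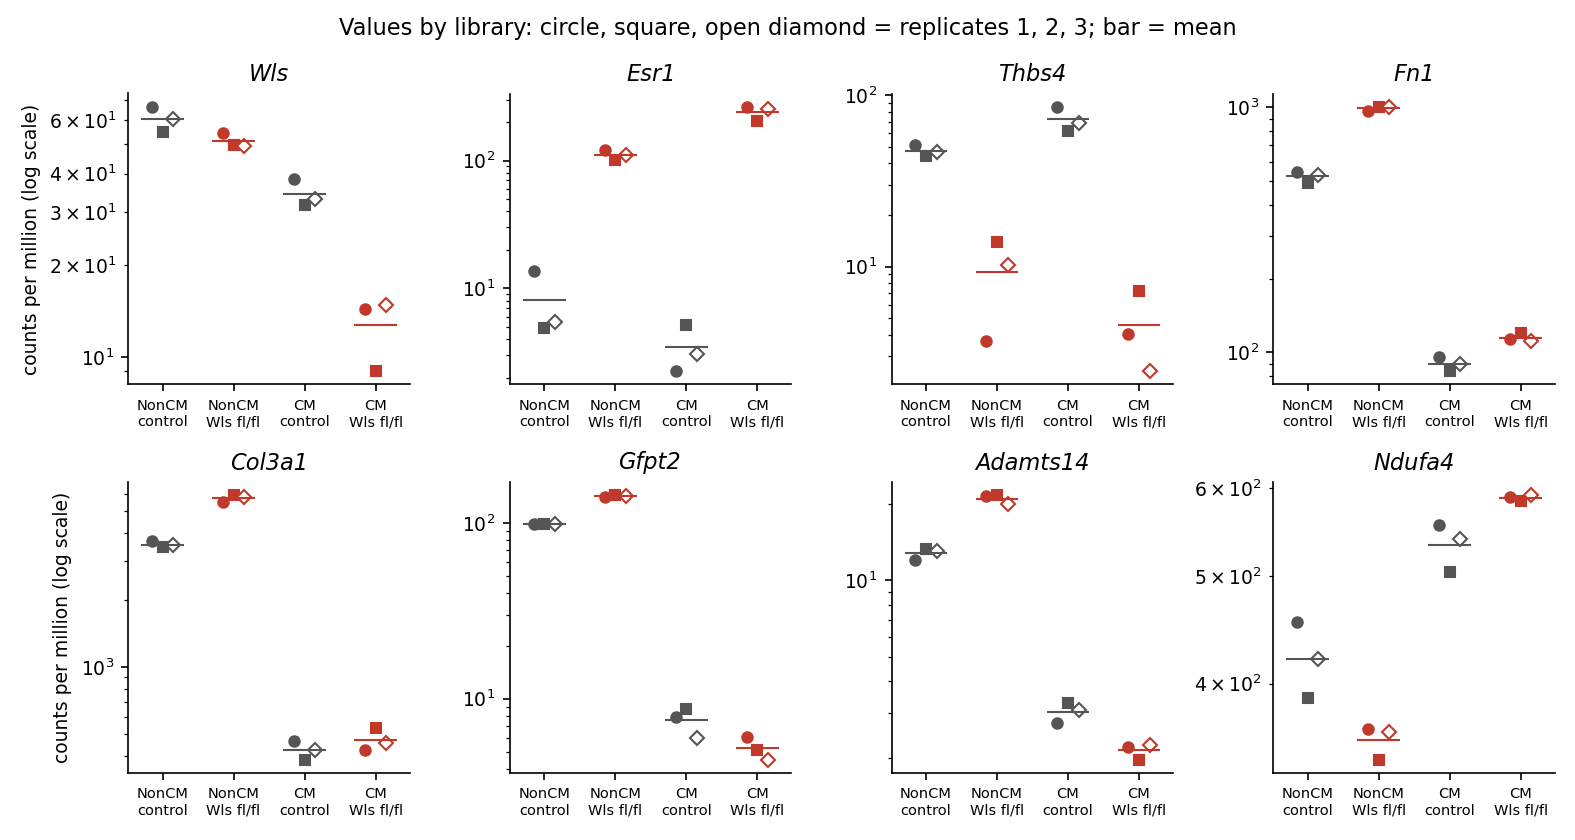
CPM on a log axis for 8 genes in the 4 groups, with a symbol for each replicate and a bar at the group mean (n = 3). Wls has a mean of 12.7 CPM in the CM Wls fl/fl group and 34.4 in CM control, while Fn1, Col3a1, Gfpt2 and Adamts14 separate the genotypes upwards in NonCM and Ndufa4 separates them downwards there.

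Across all 11331 genes, 32 were called in the interaction at a limma adjusted p under 0.05, which is 0.282% of those tested. Of these, 31 were positive (0.274%) and 1 negative (0.00883%), and 1628 genes had an unadjusted p under 0.05. The split depends on scaling: with TMM factors 40 genes were positive (0.353%) and 177 negative (1.56%), and the median interaction over all genes was −0.02 in place of 0.04. All 32 genes called on CPM were also called with TMM and by edgeR on recovered reads. Taking the library number as a fixed replicate block gave 373 calls, 199 positive and 174 negative, with all 32 among them. The labels do not say that these numbers pair the libraries. For comparison, the genotype difference inside NonCM was called for 384 higher genes (3.39%) and 296 lower genes (2.61%), a split that turned to 267 and 365 with TMM, and that inside CM for 18 genes (0.159%). The median standard error was 0.161 for an interaction and 0.114 for a NonCM difference, since an interaction carries the spread of 4 groups.

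Most of these calls did not hold in smaller sets of libraries. With 8 libraries 1 gene was called (0.00883%; 724 at an unadjusted p under 0.05), Dbn1, which was not among the 32. All 32 kept their sign there, with limma adjusted p from 0.415 to 0.747. No gene was called without CM Wls fl/fl replicate 1, NonCM Wls fl/fl replicate 2 or 3, or NonCM control replicate 3 (1532, 1188, 1237 and 1642 at an unadjusted p under 0.05). The count was 2 without CM control replicate 3, 5 without CM Wls fl/fl replicate 3 and 14 without CM control replicate 1. It rose to 50, 53 and 184 without NonCM Wls fl/fl replicate 1, CM Wls fl/fl replicate 2 and NonCM control replicate 2. Each of the 32 genes kept its call in 3 to 7 of the 12 single omissions. The last gene called had an adjusted p of 0.0466 and the first not called 0.0618, and 178 further genes, 92 positive and 86 negative, lay under 0.1.

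**Figure D2:**
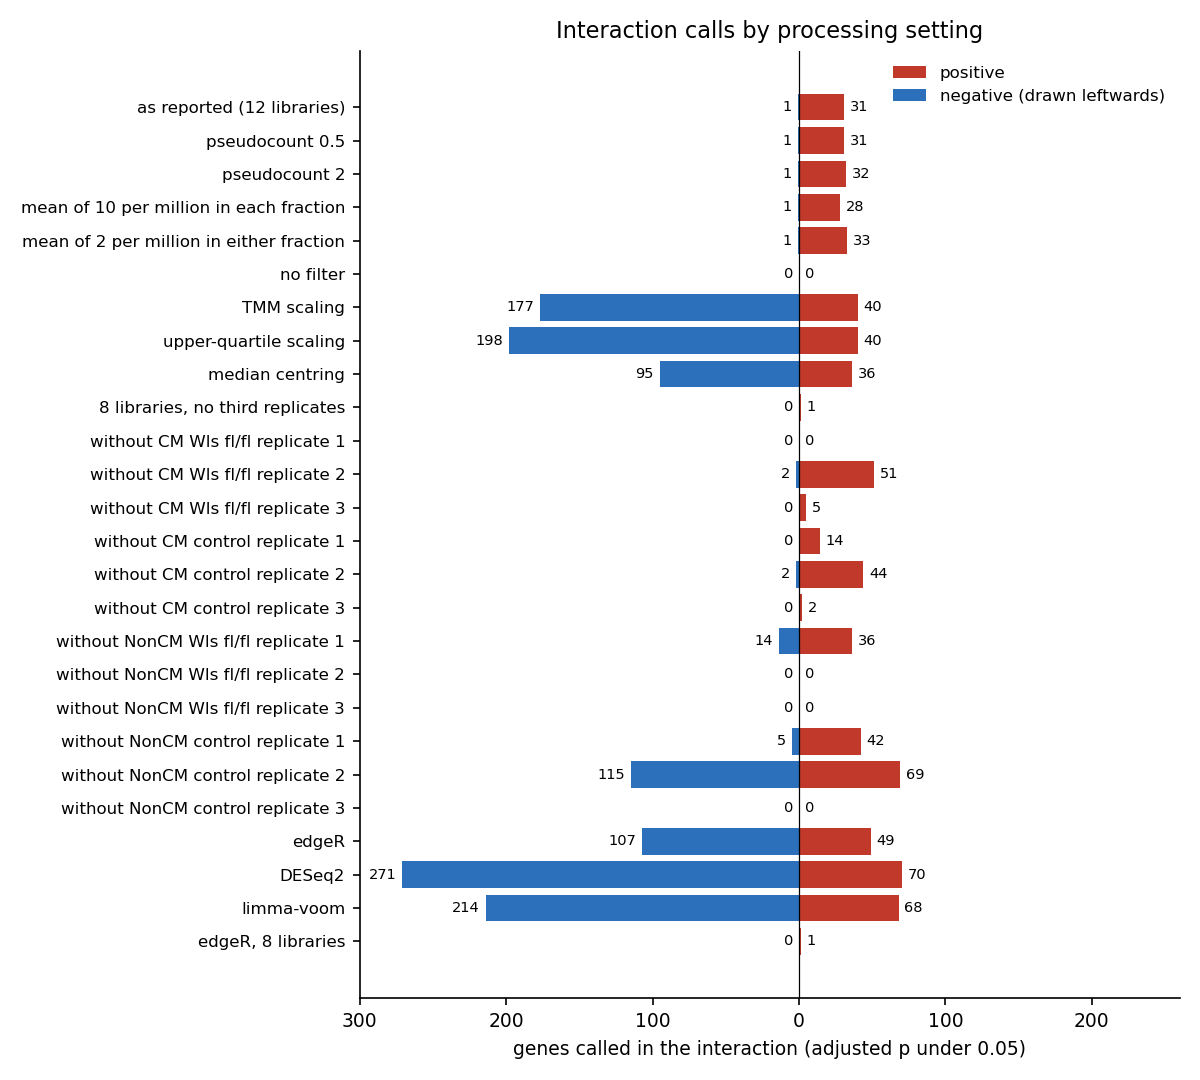
Number of genes called in the interaction (adjusted p under 0.05) by processing setting, positive to the right and negative to the left, with the count at each bar. Fits with the library number as a replicate block are not drawn. The reported setting gives 31 and 1, other scalings and the count models add mostly negative calls, and 4 of the single omissions leave 0.

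The called genes were mostly genes of the NonCM fraction that rose there and moved less in CM. Of the 32, 31 were at least 1 log2 unit higher in NonCM than in CM over both genotypes (Esr1 was the exception). Among all 11331 tested genes, 10007 lay within 1 unit of equal levels. The NonCM test was passed by 31 of the 32, all of them upwards (Wls was the exception). Genotypes did not overlap in NonCM for any of the 32, and in CM they did not overlap for 15, where 26.7% and 15.1% of all tested genes had no overlap in the same fractions. In CM 3 passed the test, Wls, Esr1 and Fn1. Over the 32 the median absolute difference was 0.50 in NonCM and 0.15 in CM, and 27 had the larger one in NonCM. Each within-fraction difference is part of the interaction, so these counts describe the calls and do not test them. Signs were opposite in 20 genes, but in none did both differences reach 0.5. The CM difference was negative in 21 of the 32. Besides Wls and Esr1, it was larger in size than the NonCM one for Lpar1 (−0.484 in CM, 0.478 in NonCM), Lsp1 (−0.475 and 0.424) and Wsb1 (−0.385 and 0.338).

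**Figure D3:**
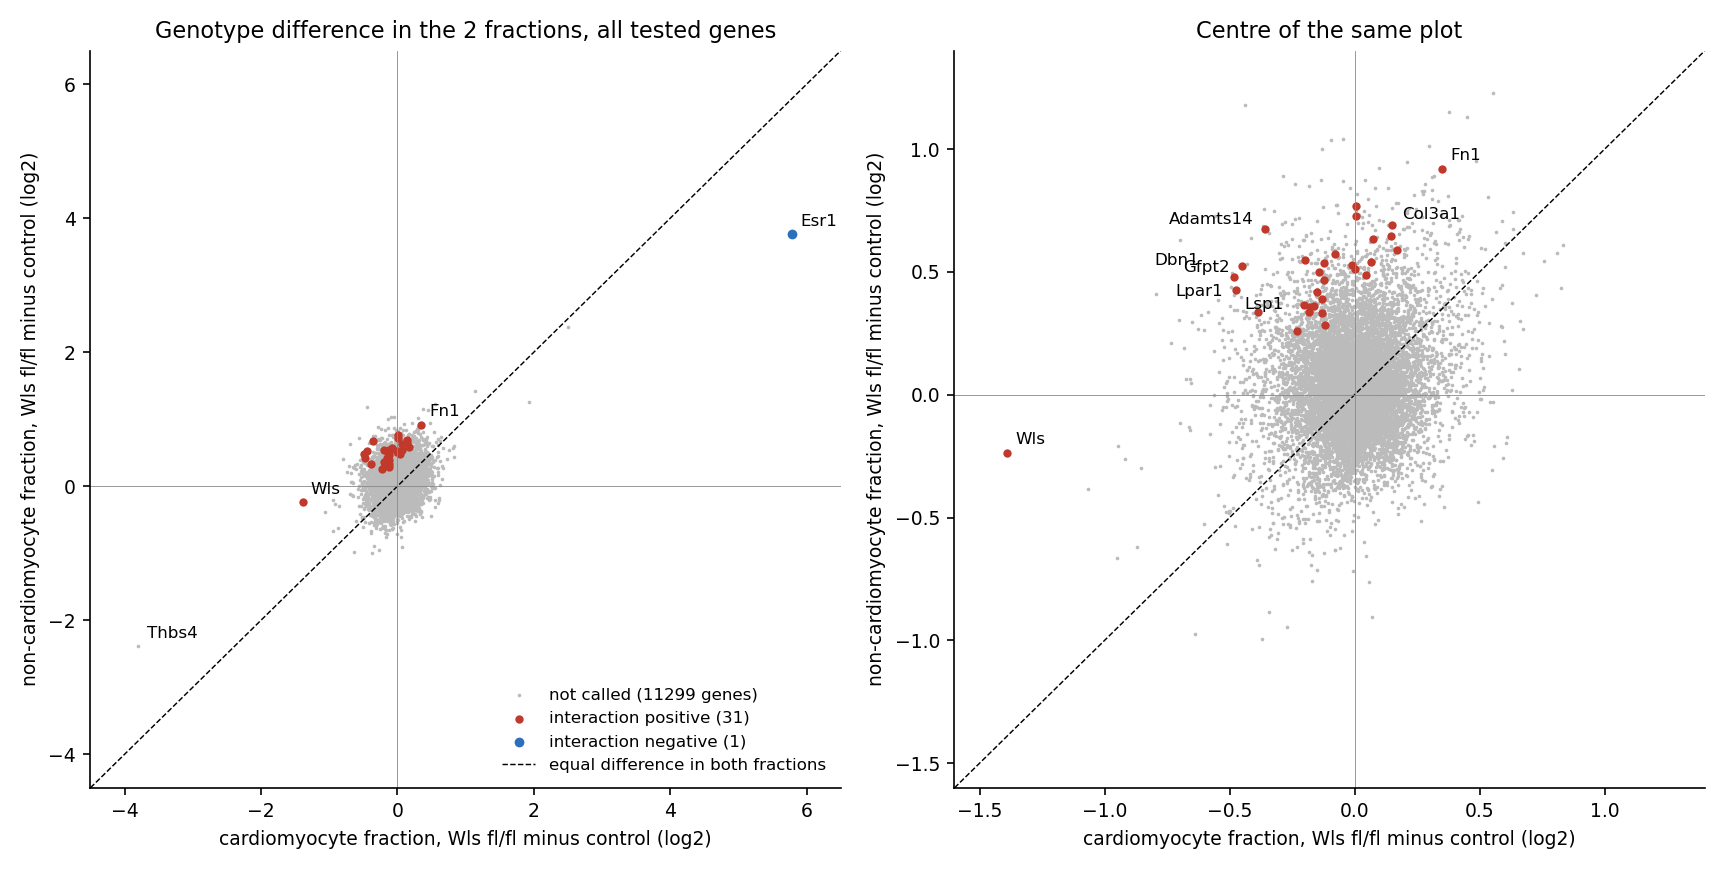
Genotype difference in CM (x axis) against that in NonCM (y axis), in log2 units, for each of the 11331 tested genes, with all genes on the left and the centre enlarged on the right. The 31 positive calls lie above the dashed line of equal difference, and apart from Wls they span −0.48 (Lpar1) to 0.35 (Fn1) in CM and 0.26 (Fosl2) to 0.92 (Fn1) in NonCM, and Esr1 alone is called below the line.

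Collagens made up 4 of the called genes, and all 4 rose in NonCM. Col3a1, the collagen III chain of distensible tissue (chromosome 1, 45311538 to 45349706, mm10), stood at 3667, 3448 and 3521 CPM in NonCM control and 5485, 5909 and 5778 in NonCM from Wls fl/fl hearts, against 464, 385 and 427 and 425, 534 and 458 in the CM groups. The NonCM groups were well apart, while the CM groups overlapped. Its differences were 0.69 and 0.15, and its interaction 0.54 (SE 0.11, limma adjusted p = 0.0466). Col5a1, a collagen V chain that regulates fibril diameter, went from 735 ± 21.6 to 1140.3 ± 56.8 CPM in NonCM and from 95.1 ± 5.97 to 100.1 ± 8.402 in CM (SD, n = 3; interaction 0.56, limma adjusted p = 0.0219). Col6a1 and Col6a2, neighbouring genes on chromosome 10 for 2 chains of the same beaded-filament collagen, had interactions of 0.51 and 0.42. Col6a2 rose from 579 ± 28.8 to 871 ± 20.4 CPM in NonCM and stood at 89.2 ± 1.79 and 101 ± 3.88 in CM (limma adjusted p = 0.0219 for the interaction).

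The DNA just upstream of 3 called genes is shown because they rose together in NonCM and because the series concerns Yap, whose partner TEAD binds GGAATG. Windows are the 250 bases before the RefSeq start (GRCm38.p6), given 5′ to 3′ on the gene's own strand, and capitals mark GGAATG or the AP-1 letters TGANTCA on either strand. The windows are chr1:45311288-45311537, chr2:27886175-27886424 and chr11:49793905-49794154, all on the plus strand.
Col3a1: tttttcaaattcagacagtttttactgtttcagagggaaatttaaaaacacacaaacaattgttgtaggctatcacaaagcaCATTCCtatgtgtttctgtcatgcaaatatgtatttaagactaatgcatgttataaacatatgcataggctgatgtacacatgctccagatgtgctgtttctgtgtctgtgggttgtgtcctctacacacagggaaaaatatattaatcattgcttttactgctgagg
Col5a1: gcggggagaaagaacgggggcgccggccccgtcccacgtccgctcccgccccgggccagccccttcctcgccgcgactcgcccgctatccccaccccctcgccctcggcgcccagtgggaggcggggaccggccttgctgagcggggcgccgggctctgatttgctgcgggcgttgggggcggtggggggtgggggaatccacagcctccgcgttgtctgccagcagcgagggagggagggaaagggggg
Gfpt2: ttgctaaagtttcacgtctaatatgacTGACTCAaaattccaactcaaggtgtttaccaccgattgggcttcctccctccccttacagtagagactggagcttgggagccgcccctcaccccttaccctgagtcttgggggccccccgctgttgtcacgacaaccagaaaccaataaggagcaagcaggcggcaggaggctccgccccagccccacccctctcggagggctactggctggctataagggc

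Of the 31 genes with a positive call, 21 had such windows in the table, 26 windows in all. GGAATG was present on either strand in 4 of the 26 (15.4%; Abca8a, Col3a1, Col6a2 and Peg3), against 12.6% of all 32851 windows and 10.9% of the windows of tested genes. TGANTCA was present in 2 of the 26 (7.69%; Col6a1 and Gfpt2), against 6.75% of all windows and 4.19% of those of tested genes. The window of Adamts14, which was extracted along with those shown, held neither motif and is not printed. Of the windows shown, that of Col3a1 held GGAATG only, that of Gfpt2 TGANTCA only and that of Col5a1 neither. A match is a description of the letters only.

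Glycoproteins and proteoglycans of the matrix made a second group. Fn1, fibronectin, on which collagen fibrils assemble (chromosome 1, 71585520 to 71653200, mm10), stood at 547, 492 and 531 CPM in NonCM control and 963, 1007 and 1002 in NonCM from Wls fl/fl hearts, and at 95.4, 83.9 and 90.1 and 113, 119.7 and 111 in CM. It was higher in every Wls fl/fl library of both fractions, by 0.92 in NonCM and 0.35 in CM (limma adjusted p = 3.31e-07 and 0.0154). Its interaction of 0.57 (SE 0.08, limma adjusted p = 0.0175) was thus between 2 rises of unequal size. Dcn, decorin, a small proteoglycan that binds collagen, had 1503, 1786 and 1619 CPM in NonCM control and 2107, 2059 and 2026 in NonCM from Wls fl/fl hearts. In CM it had 178, 187 and 188 and 149.7, 177 and 162, with Wls fl/fl below control in all 3, so that the differences of the 2 fractions had opposite signs (interaction 0.52, limma adjusted p = 0.0242; the CM difference of −0.18 was not called). Lamb1, a laminin chain of basement membranes, had an interaction of 0.46 (SE 0.07, limma adjusted p = 0.0175), with 718 ± 18.3 and 904 ± 14.8 CPM in the NonCM groups.

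Mfap5, a microfibril protein of elastic fibres, rose from 99.1, 98.2 and 99.7 to 162, 173 and 173 CPM in NonCM. Its CM values, 8.07, 8.89 and 9.51 in control against 7.35, 9.496 and 9.92 with Wls floxed, overlapped, and its interaction was 0.76 (limma adjusted p = 0.0242). Smoc2, a matricellular calcium-binding protein, and Fstl1, a secreted follistatin-like protein, had interactions of 0.52 and 0.50. Itih5, a hyaluronan-associated inter-alpha-trypsin inhibitor chain, rose by 0.73 in NonCM with a CM difference of 0.00 (interaction 0.72, limma adjusted p = 0.0219).

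Enzymes and inhibitors that process the matrix were called on both sides of proteolysis. Adamts14, a procollagen N-propeptidase (chromosome 10, 61197112 to 61273438, mm10), had the second highest positive interaction among the called genes, at 1.04 (SE 0.18, limma adjusted p = 0.0242). It stood at 12.1, 13.3 and 13.1 CPM in NonCM control and 21.5, 21.7 and 19.98 in NonCM from Wls fl/fl hearts, but at only 2.75, 3.29 and 3.07 and 2.21, 1.96 and 2.25 in CM, where a few reads decide the value. Bmp1, which removes the C-propeptide of fibrillar procollagens, went from 95.5 ± 5.26 to 135 ± 7.98 CPM in NonCM (interaction 0.64). Mmp2, a gelatinase, and Timp2, which inhibits Mmp2 and also helps activate it, had interactions of 0.52 and 0.54, with NonCM rises of 0.39 and 0.53. Sulf1, which trims sulfate from heparan sulfate chains and so alters growth factor and Wnt binding, had an interaction of 0.66 (limma adjusted p = 0.0219). Mrc2, an endocytic collagen receptor, had one of 0.59.

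Gfpt2 and Uap1, enzymes near the start and the end of the hexosamine pathway that supplies UDP-N-acetylglucosamine for glycans, were both called. Gfpt2 (chromosome 11, 49794178 to 49838613, mm10) stood at 99.1, 98.3 and 98.2 CPM in NonCM control and 140.3, 144 and 142 in NonCM from Wls fl/fl hearts. In CM it stood at 7.91, 8.701 and 5.98 and 6.07, 5.08 and 4.501, overlapping and mostly lower in Wls fl/fl. The interaction was 0.98 (SE 0.16, limma adjusted p = 0.0219). Uap1 had 60.6 ± 2.92 and 90.5 ± 4.05 CPM in NonCM, 25.1 ± 2.21 and 23.7 ± 2.11 in CM, and an interaction of 0.65 (limma adjusted p = 0.0261).

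Among signalling genes, Tgfb3, a TGF beta ligand that drives matrix synthesis, had an interaction of 0.75 (SE 0.13, limma adjusted p = 0.0259). Its CPM was 36.2, 32.6 and 33.9 in NonCM control and 47.3, 52.6 and 51.7 in NonCM from Wls fl/fl hearts, and 11.8, 12.2 and 13.96 and 11.03, 11.6 and 10.02 in CM, with Wls fl/fl above every control library in the former fraction and below every one in the latter. Lpar1, a lysophosphatidic acid receptor, went from 65.9 ± 8.38 to 91.7 ± 3.01 CPM in NonCM and from 8.74 ± 1.303 to 5.99 ± 1.11 in CM (interaction 0.96, limma adjusted p = 0.0302). Lsp1, an actin-binding protein first known from leukocytes, had 109, 76.6 and 93.3 CPM in NonCM control and 117, 132 and 122 in NonCM from Wls fl/fl hearts, and 31.99 ± 1.11 in CM control against 22.9 ± 2.96 in CM Wls fl/fl, which did not pass the CM test (interaction 0.90, limma adjusted p = 0.0219). Fosl2, an AP-1 subunit, Cd34, a sialomucin of progenitor, endothelial and stromal cells, and H2-K1, a class I major histocompatibility chain, had interactions of 0.49, 0.44 and 0.47. H2-K1 and Abca8a (0.40) have near-identical relatives among which reads may be split, so their values are uncertain. The remaining called genes were Wsb1 (0.72), a ubiquitin ligase adaptor, Epb41l2 (0.57), a membrane skeleton protein, the imprinted gene Peg3 (0.57), and Snx18 (0.54), an endocytic sorting nexin.

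Dbn1 (drebrin, an actin-binding protein; chromosome 13, 55473429 to 55488111, mm10) was the gene called with 8 libraries and not with 12, and it was singled out after its values were seen. It stood at 30.5, 30.7 and 13.5 CPM in CM control, where replicate 3 was well below the other two and near the Wls fl/fl level of 11.95, 15.2 and 15.1. In NonCM it stood at 28.4, 28.8 and 29.6 and 45.3, 46.9 and 43.8, with no overlap. Its interaction was 1.33 with 12 libraries (limma adjusted p = 0.0618) and 1.80 with 8 (limma adjusted p = 0.0165; edgeR adjusted p = 0.00552). Leaving out CM control replicate 3 alone gave 1.70 (limma adjusted p = 8.97e-05). For this gene replicate 3 did not lie between replicates 1 and 2, unlike the profile as a whole.

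The gene lists showed the same division beyond the called genes. Of 18 tested resident fibroblast markers of 20 listed, 4 were called in the interaction, all positive (Col3a1, Dcn, Mfap5 and Smoc2; 0.274% of all genes), and all 18 interactions were positive with a median of 0.48, beside 0.04 over all tested genes, of which 6424 were positive. In NonCM 13 of the 18 were called higher, against 3.39% of all genes, all 18 were positive (median 0.49), and in CM none was called (median −0.01). The list took 1.37 ± 0.045998% of reads in NonCM control and 1.93 ± 0.0507% in NonCM from Wls fl/fl hearts, against 0.159 ± 0.004597% and 0.15998 ± 0.0176% in CM (SD, n = 3). Among 14 tested of 17 listed fibrillar and associated collagens, 4 were called positive and all 14 were positive (median 0.47). In NonCM 13 of the 14 were called higher, with a median of 0.65, and in CM none was called (median 0.18). Members such as Col1a1 (0.47) and Col1a2 (0.50), the chains of collagen I, had interactions as large as those called but did not pass (limma adjusted p = 0.121 and 0.0655). Col3a1 belongs to both lists.

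Other matrix lists also had medians above that of all genes. Of 9 tested small leucine-rich proteoglycans 1 was called (Dcn; median 0.47, all 9 positive), and of 16 elastic fibre genes 1 (Mfap5; median 0.39). Of 19 matricellular and activated fibroblast genes 3 were called, Fn1, Fstl1 and Tgfb3 (median 0.32). Genes of the contractile apparatus in that list gave values below 0, −0.20 for Acta2 (smooth muscle actin) and −0.12 for Tagln, neither of which passed. Basement membrane genes (1 of 16, Lamb1), collagen modifying enzymes (1 of 18, Bmp1), matrix proteases and inhibitors (2 of 15, Mmp2 and Timp2) and TGF beta and BMP signalling genes (1 of 22, Tgfb3) had medians of 0.17, 0.19, 0.13 and 0.11. Col4a1, the main basement membrane collagen chain, rose in NonCM by 0.34 and differed by 0.23 in CM, leaving an interaction of 0.10 that was not called.

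Cardiomyocyte and energy genes lay on the negative side, and none of them was called on CPM in the fit of 4 group means. All 28 mature cardiomyocyte markers had a negative interaction (median −0.28), 24 of them with an unadjusted p under 0.05. The same held for all 23 tested sarcomere genes (median −0.25) and all 46 oxidative phosphorylation genes (median −0.26, 44 with an unadjusted p under 0.05). Fatty acid oxidation genes (25 of 28 negative) had a median of −0.25, glycolysis genes (18 of 20) −0.20 and calcium handling genes (14 of 16) −0.21. With TMM scaling, negative calls numbered 16 of 28 mature cardiomyocyte markers, 9 of 23 sarcomere genes, 30 of 46 oxidative phosphorylation genes, 11 of 28 fatty acid oxidation genes, 4 of 20 glycolysis genes and 3 of 16 calcium handling genes, where 1.56% of all genes were called negative. The 12 tested mitochondrially encoded genes had a median of −0.05 and no call under either scaling. Among them mt-Atp6, a subunit of ATP synthase, gave −0.41 (limma adjusted p = 0.261). Its level was only 8.13 to 12.4 CPM over all libraries, while the whole list took 17.7 ± 1.4% of reads in NonCM control.

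Ndufa4, a subunit that works with cytochrome c oxidase, was the oxidative phosphorylation gene of smallest p. It stood at 454, 388 and 421 CPM in NonCM control, 364, 342 and 362 in NonCM from Wls fl/fl hearts, 557, 504 and 539.8 in CM control and 589, 585 and 592 in CM from Wls fl/fl hearts. Wls fl/fl was lower than control in NonCM and higher in CM with no overlap in either, and the interaction was −0.38 (SE 0.08, limma adjusted p = 0.0618). Ryr2, the calcium release channel of the sarcoplasmic reticulum, gave −0.38 (limma adjusted p = 0.0799), from −0.23 in NonCM and 0.14 in CM. Myoz2, a Z-disc protein, gave −0.32, of which −0.33 lay in NonCM and −0.01 in CM. Cox7a1, the heart and muscle form of a cytochrome c oxidase subunit, Acadl, which oxidizes long-chain acyl-CoA, and Pgam2, the muscle phosphoglycerate mutase, gave −0.31, −0.32 and −0.36.

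Most within-fraction calls for these genes were in NonCM. Of the mature cardiomyocyte markers 18 of 28 were called lower in NonCM, against 2.61% of all genes, and all 28 were negative there (median −0.25). In CM 1 was called lower (Myom2, not called with TMM), against 0.159% of all genes called either way, and the median was 0.03. With TMM 1 marker was called higher in CM and none lower. Of the oxidative phosphorylation genes 19 of 46 were called lower in NonCM (median −0.18), and in CM none was called (median 0.10). The summed share of the 28 markers was 8.2002 to 8.98% of reads in NonCM control and 7.06 to 7.33% in NonCM from Wls fl/fl hearts, without overlap, and 12.4 to 12.6% and 12.2 to 13.5% in the CM groups. None of the 28 was at 0 in any group. The part of this shift in the interaction of single genes was not tested.

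**Figure D4:**
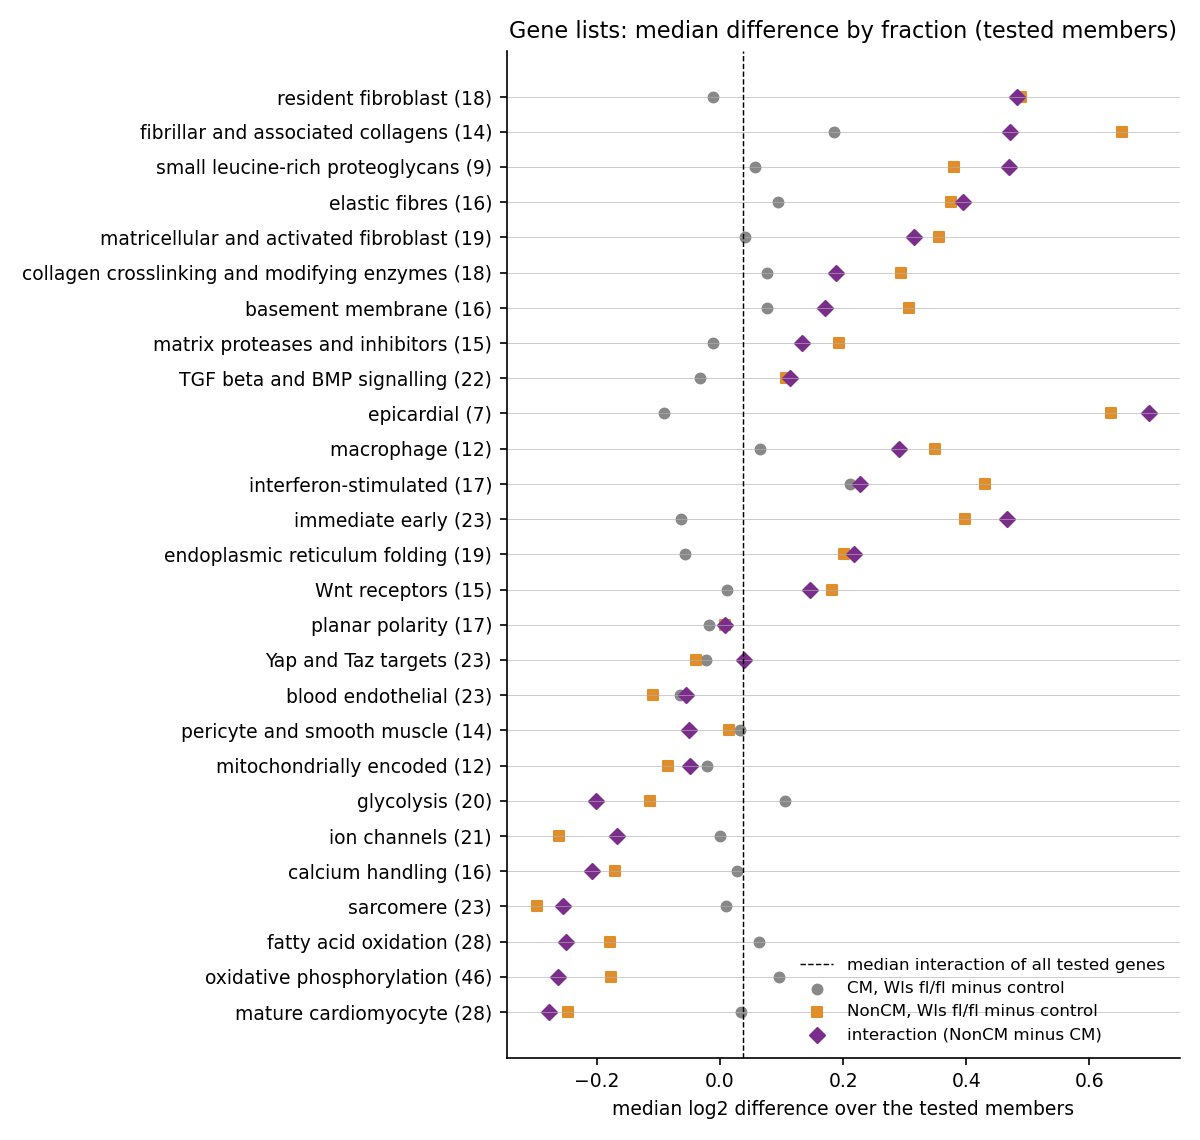
Median log2 genotype difference in CM and in NonCM and median interaction over the tested members of each gene list (number tested in brackets), with a dashed line at the median interaction of all genes. Matrix and fibroblast lists sit to the right with their NonCM and interaction medians above 0, and the muscle and energy lists sit to the left.

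Fraction preference and interaction ran in parallel over all genes. The preference is the mean NonCM level minus the mean CM level over both genotypes, a contrast orthogonal to the interaction in this balanced design. Among the 10007 genes within 1 log2 unit of equal levels, 0 were called positive and 1 negative, and the median interaction was 0.01. Genes higher in NonCM by 1 to 2 units had 10 positive calls among 922 (median 0.24), those higher by 2 to 3 units 10 among 268 (median 0.35) and those higher by 3 or more 11 among 132 (median 0.43). In this last group the median NonCM difference was 0.42 and the median CM difference 0.05. With 8 libraries the medians were 0.01, 0.25, 0.36 and 0.41, and with TMM −0.05, 0.19, 0.29 and 0.37. All 177 negative calls under TMM lay within 1 unit of equal levels. Just 2 tested genes were higher in CM by 1 unit or more. These are descriptions across genes, which are not independent replicates.

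**Figure D5:**
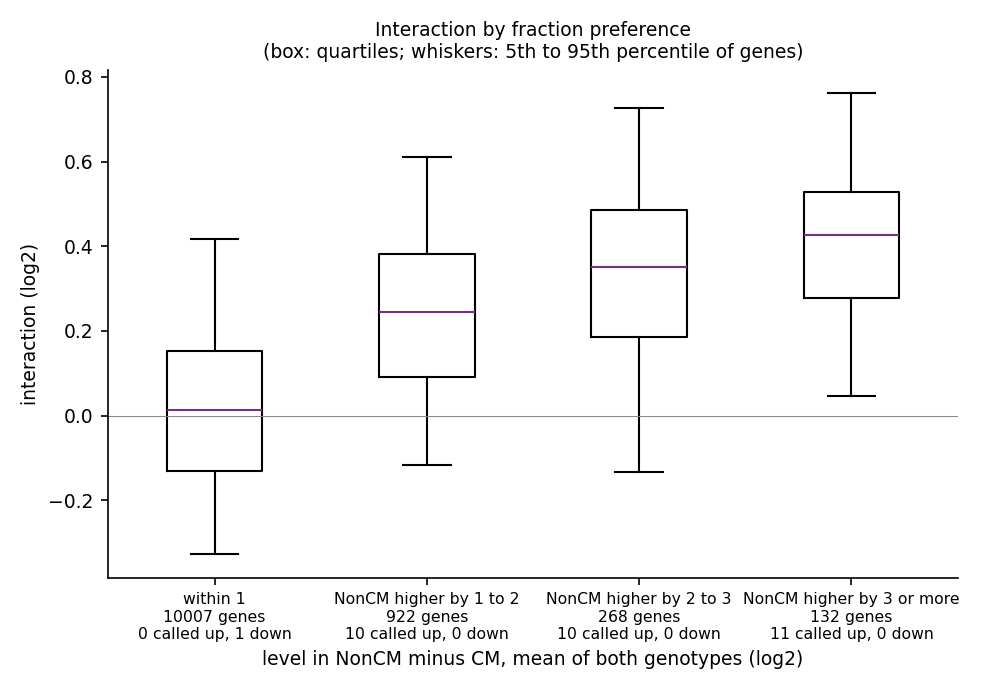
Interaction (log2) of all tested genes grouped by how much higher their level was in NonCM than in CM; the line is the median, the box spans the quartiles and the whiskers reach the 5th and 95th percentiles of genes. The median climbs from 0.01 to 0.43 across the groups and 31 of the 32 calls fall in the 3 groups on the right.

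Markers of other cell types gave no interaction call, apart from Fn1, which the monocyte list holds. Blood endothelial markers, 23 of 23 tested, had no call, a median of −0.05 and 7 positive members, with Vwf (von Willebrand factor) at −0.16. Pericyte and smooth muscle markers had a median of −0.05 over 14 genes and 1 negative call with TMM. That call was Des (desmin), which gave −0.27 on CPM and is also in the mature cardiomyocyte list. Des stood at 1189 ± 60.7 CPM in NonCM control and at 1900 ± 40.9 in CM control (SD, n = 3). The endothelial list took 0.581 ± 0.0239% of reads in NonCM control, 0.525 ± 0.00208% in NonCM Wls fl/fl, 0.4696 ± 0.0288% in CM control and 0.456 ± 0.0213% in CM from Wls fl/fl hearts, so that it was little enriched in NonCM. Macrophage markers had a median of 0.29 over the 12 of 20 that could be tested, with no interaction call. Csf1r, the macrophage growth factor receptor, stood at 239.6, 293 and 286 CPM in NonCM control and 355, 319.7 and 339 in NonCM from Wls fl/fl hearts, and at 14.2 ± 0.873 in CM control (interaction 0.50, limma adjusted p = 0.0882). The macrophage list took 0.163 to 0.208% of reads in NonCM control and 0.228 to 0.253% in NonCM from Wls fl/fl hearts, and the part of that difference in other interactions was not tested. The 4 tested monocyte markers had a median of 0.42.

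Epicardial markers had the highest median of the lists with at least 5 tested members, 0.70 over 7 of 13, with no call. Sema3d, a guidance ligand of the epicardium, went from 23.2 ± 0.235 to 38.2 ± 1.001 CPM in NonCM with 4.49 ± 0.549 and 4.38 ± 0.628 in CM (interaction 0.73, limma adjusted p = 0.0743). Lymphatic endothelial markers (6 of 8) had a median of 0.04, which turned to −0.02 with TMM, and the listed Prox1 gave −0.30. Unlike the list, whose median level was 1.77 log2 units higher in NonCM, Prox1 was higher in CM. It stood at 119 ± 12.7 CPM in NonCM control and 149 ± 5.82 in CM control, so its value is not particular to lymphatic cells. The 5 tested erythroid genes had a median of −0.49 and none was called, the beta-globin Hbb-bt, whose reads may be split with its close copy, gave −0.85, and their summed share differed widely between libraries of the same group, from 0.0305 to 0.0804% in NonCM Wls fl/fl. None of 14 neutrophil and 13 lymphocyte markers reached the filter in CM, so neither list has an interaction. The neutrophil list took 0.00129 to 0.00201% of reads in NonCM control and 0.00284 to 0.0131% in NonCM from Wls fl/fl hearts. The lymphocyte list took at most 0.00130% in any library, and its marker Klrb1c had no read at all.

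Immediate early genes, transcribed within minutes of a stimulus and also during tissue dissociation, were all positive: 23 of 23 tested of 26 listed, median 0.47, with 1 call (Fosl2) and 14 at an unadjusted p under 0.05. Fosl2 stood at 144, 157 and 146 CPM in NonCM control and 169.5, 183 and 183 in NonCM from Wls fl/fl hearts, and at 73.8, 69.2 and 67.5 and 56.4, 59.4 and 63.3 in CM, separated upwards in NonCM and downwards in CM. In NonCM 12 of the 23 were called higher (3.39% of all genes; 7 of the 23 with TMM), 22 were positive (median 0.40), and in CM none was called. Fos and Fosb, both AP-1 subunits, rose in NonCM by 0.73 and 0.84. The summed share of the list was 0.326 to 0.354% of reads in NonCM control and 0.3901 to 0.528% in NonCM from Wls fl/fl hearts, without overlap. Endoplasmic reticulum folding genes, which serve secreted proteins such as collagens, had a median of 0.22 over 19 genes and no call, with Dnajc3, a co-chaperone, at 0.48. Interferon-stimulated genes had a median of 0.23 with no call among 17, but 0.04 with 8 libraries, and their medians were 0.43 in NonCM and 0.21 in CM. Ddx58, the RIG-I sensor of viral RNA, gave 0.51 (limma adjusted p = 0.166).

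The remaining lists outside the Wnt pathway held 1 call, H2-K1 among 11 antigen presentation genes (median 0.30, all 11 positive). Complement and coagulation genes (14 tested) had a median of 0.23. Chemokines and receptors (5 tested) had a median of 0.35, with Ccl6 at 0.74, and secreted injury proteins (3 tested) one of 0.25, with ceruloplasmin, Cp, at 0.32. S phase genes (9 tested) and mitosis genes (3 of 22 tested) had medians of 0.15 and 0.09, the latter turning just below 0 with upper-quartile scaling, with Pola1, a DNA polymerase subunit, at 0.54 and Top2a, a topoisomerase of dividing cells, at 0.27. Iron and heme genes (17 tested) had a median of −0.07, with the ferritin light chain Ftl1 at 0.36. Natriuretic peptide and stress genes (18 tested) and ion channels (21 tested) had medians of −0.21 and −0.17, with Myh7, the slow myosin heavy chain, at −0.29 and Kcnk3, a background potassium channel, at −0.24. With TMM, 4 of the former and 1 of the latter were called negative.

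No Wnt ligand was called in the interaction. Of 21 ligand and secretion genes 5 passed the filter, Wls and 4 ligands, and their median of 0.08 turned just below 0 with upper-quartile scaling. Wnt5a, the noncanonical ligand, stood at 21.5, 21.6 and 23.6 CPM in NonCM control, 26.6, 28.4 and 24.9 in NonCM from Wls fl/fl hearts, 13.1, 10.6 and 11.05 in CM control and 13.4, 14.2 and 11.7 in CM from Wls fl/fl hearts. Wls fl/fl lay above control in NonCM without overlap and overlapped it in CM, neither difference passed (0.24 and 0.17), and the interaction was 0.08 with a 95% interval of −0.25 to 0.41. Wnt9a, at 8.07 to 16.5 CPM over all libraries, gave 0.09 (−0.48 to 0.66). Wnt5b and Wnt11, noncanonical ligands with their highest group means in NonCM control (3.63 ± 0.591 and 5.32 ± 1.74 CPM), gave −0.32 (−0.93 to 0.29) and −0.30 (−0.97 to 0.36). These intervals are too wide to show that the fractions responded alike.

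Receivers of Wnt signals were likewise uncalled. Among 15 tested receptors and co-receptors (median 0.15), Ptk7, a noncanonical co-receptor, gave 0.51 (limma adjusted p = 0.135), with 24.1, 22.8 and 26.3 CPM in NonCM control and 33.8, 32.8 and 38.5 in NonCM from Wls fl/fl hearts. Its NonCM groups did not overlap, and it passed the NonCM test (0.50), as did Ror1, a receptor for Wnt5a (0.57; interaction 0.38). Planar polarity genes had a median of 0.01 over 17 members, which turned to −0.05 with TMM, and Prickle2 gave 0.38. The 5 tested Wnt antagonists had a median of 0.44, with Sfrp1, a secreted frizzled-related protein, at 88.9 ± 7.69 and 134 ± 1.36 CPM in NonCM and an interaction of 0.44 (limma adjusted p = 0.278). Beta-catenin feedback targets (6 tested, median −0.11, Ccnd1 −0.26) and Yap and Taz targets (23 tested, median 0.04, turning to −0.02 with TMM) had no call. Rbms3, the Yap target of smallest p, gave 0.47 (limma adjusted p = 0.0799).

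All 18 genes called in CM had a difference of the same sign in NonCM, and 11 of them were also called there. Over all tested genes 3.39% were called higher in NonCM and 2.61% lower. The share with the same sign in both fractions was not counted over all tested genes. Of the 18, 15 had the smaller difference in NonCM, and 3 were called in the interaction. Since the 18 were chosen for their CM difference, the smaller NonCM difference is a description of the choice as well as of the genes. Of all 11331 genes, 680 were called in NonCM. Dbn1, which was not among the 18, was called lower in CM with 8 libraries (−1.13, limma adjusted p = 0.0211). In NonCM it was higher in Wls fl/fl than in control. Thbs4, thrombospondin 4 of the injured heart's matrix (chromosome 13, 92751590 to 92794818, mm10), stood at 85.6, 62.1 and 69.1 CPM in CM control and 4.04, 7.204 and 2.46 in CM from Wls fl/fl hearts, and at 50.9, 44.4 and 46.7 and 3.696, 13.98 and 10.2 in NonCM. It was lower in every Wls fl/fl library of both fractions, with differences of −3.80 in CM and −2.38 in NonCM. The interaction of 1.41 had a 95% interval of 0.42 to 2.40 and was not called (limma adjusted p = 0.172), and its Wls fl/fl replicates were widely spread. Without replicate 3 of each group it was 0.99.

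Ndrg4, a cytoplasmic protein of heart and brain, rose in both fractions, from 106 ± 4.92 to 181 ± 21.5 CPM in CM and from 63.9 ± 2.36 to 93.6 ± 2.27 in NonCM (interaction −0.21, limma adjusted p = 0.361). Tfrc, the transferrin receptor that imports iron, rose by 0.63 in CM and 0.38 in NonCM (interaction −0.25, −0.55 to 0.04). Prkg1, the cGMP-dependent kinase, rose by 0.82 and 0.44 (interaction −0.39). Ces1d, a triglyceride hydrolase, had a difference of −1.07 in CM, where control was at 25.2, 25.5 and 25.5 and Wls fl/fl at 9.19, 14.4 and 11.8 CPM, against −0.38 in NonCM (interaction 0.68, limma adjusted p = 0.119). Nnt, the mitochondrial transhydrogenase, rose in CM by 0.33 and differed by 0.11 in NonCM without passing there, and the interaction of −0.22 was not called.

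The other genes called in CM were added after their values were seen. Among those that rose, Hcn2, a pacemaker channel, had 0.39 in CM and 0.18 in NonCM, and Papln, a matrix glycoprotein, had 0.55 and 0.39. Kcnn3, a calcium-activated potassium channel, had 0.63 and 0.74. Mdga1, a membrane-anchored adhesion protein, had 0.66 and 0.10, with an interaction of −0.55 that was not called (limma adjusted p = 0.0982). Among those that fell, Myom2, which crosslinks myosin in the sarcomere's M-band, had −0.27 in CM and −0.53 in NonCM, the NonCM difference being the larger as it was for Fn1 and Kcnn3. Hdac9, a histone deacetylase, had −0.51 and −0.48, and 4833420G17Rik, a gene known only by its clone name, had −0.95 and −0.66. Prune2 (−0.70 and −0.11) and Pyroxd2 (−0.94 and −0.21, at 4.05 ± 0.604 CPM in CM control) were far smaller in NonCM, but their interactions of 0.58 and 0.74 did not pass. In the other direction, 31 of the 680 genes called in NonCM were called in the interaction, against 0.282% of all tested genes. Of the 680, 452 had the same sign in CM, again without a count over all genes.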

How the data were processed

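The deposited tables, 1 per fraction, hold normalized counts made by the authors (a signal with no fixed total, whose values in a column are whole multiples of 1 step, as for counts divided by a size factor), with STAR, DESeq2 and the build mm10 named in the submitters' processing notes. Dividing each column by the value of 1 read gave whole reads for 100% of values (tolerance 0.01). Both tables were joined on gene symbol, 27 symbols turned into dates were left out, 16422 symbols had no read, and reads were scaled to CPM over all 12 libraries. No per-sample column was left unused.

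limma 3.58.1 (R 4.3.3; trend; 4 group means, 8 residual degrees of freedom) was run on log2(CPM + 1) for genes with a mean of 2 CPM or more in each fraction, with Benjamini-Hochberg adjustment over 11331 genes and a threshold of 0.05. The pseudocount shrinks differences of low genes. edgeR 4.0.16, DESeq2 1.42.0 and limma-voom on recovered reads, other scalings, filters, pseudocounts and sets of libraries were alternatives, and the fits were tested on simulated data. Positions are from GENCODE for GRCm38, and promoter windows from RefSeq.

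Named genes were Wls, Esr1, the 12 called genes of largest interaction in each direction, for each list 2 called members or 1 tested member of smallest p, and every tested Wnt ligand. Other called genes, and Dbn1, Col1a1, Col1a2, Col4a1, Acta2, Tagln, Fos, Fosb and Ror1, were added after their values were seen, and a few named genes are not reported here. The comparison and the gene lists were chosen with earlier results of these data known. Depth, 1160146 to 10281214 reads, limits low genes most in NonCM control replicate 1, where 1 read is 0.862 CPM. Counting error alone is not the spread tested.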

Additional observations from a re-analysis of the deposited data

Results flagged for a closer look

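For 32 genes the genotype difference in NonCM departed from that in CM by a test of the difference itself (limma's interaction contrast, adjusted p under 0.05 over 11331 genes). Each value below is the NonCM difference minus the CM difference in log2 units, and in the same fit of group means to the 8 libraries that leave out replicate 3 none of them had an adjusted p under 0.05. Esr1 had −2.02 and Wls 1.15.

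Among collagens Col5a1 had 0.56, Col3a1 0.54, Col6a1 0.51 and Col6a2 0.42. Among other matrix proteins Mfap5 had 0.76, Itih5 0.72, Fn1 0.57, Smoc2 0.52, Dcn 0.52, Fstl1 0.50 and Lamb1 0.46. Among genes that process or take up matrix Adamts14 had 1.04, Sulf1 0.66, Bmp1 0.64, Mrc2 0.59, Timp2 0.54 and Mmp2 0.52. The hexosamine enzymes Gfpt2 and Uap1 had 0.98 and 0.65.

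Among signalling, surface and nuclear genes Lpar1 had 0.96, Lsp1 0.90, Tgfb3 0.75, Peg3 0.57, Fosl2 0.49, H2-K1 0.47 and Cd34 0.44. The others were Wsb1 at 0.72, Epb41l2 at 0.57, Snx18 at 0.54 and Abca8a at 0.40.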

How the results depend on the processing

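No called interaction of a named gene changed sign under any alternative run, but scaling changed which direction held most calls. The 32 interaction calls became 0 without a filter on low values (30534 genes tested; 2780 with an unadjusted p below 0.05, and 0.088 the lowest adjusted p), 217 with TMM scaling (40 positive), 238 with upper-quartile scaling (40 positive) and 131 with median centring (36 positive). Pseudocounts of 0.5 and 2, a mean of 10 CPM and a filter on either fraction left 29 to 34. Count models gave 156 calls with edgeR, 341 with DESeq2 (49 and 70 positive) and 282 with limma-voom. DESeq2 called 24 of the 32 and gave the other 8 no adjusted p. Without replicate 3 of each group limma and edgeR each called 1 gene. An adjusted p under 0.1 gave 210 calls, and a size of at least 1 left 3. Leaving out 1 library gave 0 to 184.

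The 680 non-cardiomyocyte genotype calls (384 higher, 296 lower) split into 267 higher and 365 lower with TMM, 190 and 718 with upper-quartile scaling and 290 and 449 with median centring, and became 432 with no filter, 2 without replicate 3 of each group (Esr1 and Fn1; 64 by edgeR), 1117 with edgeR, 1251 with limma-voom, 1122 at an adjusted p under 0.1 and 4 at a size of at least 1, and 219 to 804 with 1 library left out, with 413, 223, 219 and 376 without NonCM Wls fl/fl replicates 1, 2 and 3 and NonCM control replicate 3. The 18 cardiomyocyte genotype calls became 11 with no filter, 5 without replicate 3 of each group (Dbn1, Esr1, Ndrg4, Thbs4 and Wls; 5 by edgeR), 34 with edgeR, 37 with DESeq2, 35 with limma-voom, 32 at an adjusted p under 0.1 and 4 at a size of at least 1, and 7 to 39 with 1 library left out, with 7, 8, 7 and 39 without CM Wls fl/fl replicates 1 and 3, CM control replicate 3 and NonCM control replicate 1. The cause of these changes was not tested.

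With the library number as a replicate block the interaction calls were 373 (fixed block; 199 positive and 174 negative, the latter with Ndufa4, Acadl, Myoz2, Cox7a1, Ryr2 and Pgam2), 159 (random block; consensus correlation 0.1079) and 3 with a fixed block in 8 libraries (Dbn1, Wls and mt-Rnr2). Deviations of same-numbered NonCM and CM libraries correlated at 0.0225 to 0.2314 and not above 0.1 in every pair, so the numbers were not taken to pair the libraries, although 5 of 6 NonCM libraries correlated best with their own number. Single genes and lists kept direction and side of the threshold in 2816 of their recomputed values, with 339 no longer past it, 124 newly past it and 146 moved in size. Depth limits genes of a few CPM, above all in NonCM control replicate 1.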

Other observations

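Zrsr1, which encodes a U2AF-related splicing factor from an imprinted locus, took either of 2 levels in a library with no intermediate, and not by group. It stood at 14.9, 16.2 and 2776 CPM in control CM, 15.8, 2964 and 2804 in CM from Wls fl/fl hearts, 18.96, 2708 and 2924 in NonCM control and 2859, 2963 and 2585 in NonCM from Wls fl/fl hearts (replicates 1, 2 and 3 of each group). Replicate 3 of CM control was at the high level while replicates 1 and 2 were at the low one, so that a mixture of those libraries does not give its value. Among the libraries of control replicate 2, and of Wls fl/fl replicate 1, the 2 fractions were at different levels. Its interaction was −0.14 (limma adjusted p = 0.989). This gene was singled out after its values were seen, and no explanation was tested.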
